A study of Mus musculus with 28 samples.

Results

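Among the genes that encode RNA-binding regulators of translation, message storage, stability or splicing in germ cells, 8 were followed through mouse testis arrays: Ybx2, Boll, Dazl, Cpeb1, Cpeb2, Elavl1, Qk and Rbmxl2. Every probe set (a group of array probes read out as 1 signal) annotated to one of these 8 symbols alone was taken, which gave 25 of 45037 probe sets that are not controls, from 8 of 18193 genes. Elavl1 and Qk hold 6 and 7 of them, Boll 4, Cpeb2 3, Dazl 2, and Ybx2, Cpeb1 and Rbmxl2 1 each. The 28 arrays came from adult male C57BL/6 mice that were either knockout (KO, labelled GRTH null) or wild type (WT) for Ddx25, the gene of gonadotropin-regulated testicular RNA helicase (GRTH), a DEAD-box enzyme of germ cells and Leydig cells. KO and WT were compared in total testis polysome RNA from sucrose gradients (3 arrays each), in spermatocytes (4 each), in round spermatids (3 each) and in a Leydig cell fraction (2 each), the cells being separated by elutriation. WT polysome RNA was also recovered with GRTH antibody (GRTH IP, 2 arrays) or with control IgG (IgG IP, 2 arrays). Nothing in the labels says whether arrays of 1 group came from separate animals or pools, so each p-value speaks only of array-to-array spread, part of which may be technical.

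Transcription stops as the spermatid nucleus condenses, so many messages of late spermatogenesis are made early, kept silent in ribonucleoprotein particles and translated later. Ybx2 (also called MSY2) is the abundant Y-box protein that coats and stores such messages. Dazl and Boll belong to the DAZ family, whose members bind messages through an RNA recognition motif and favour their translation. The CPEB proteins bind the cytoplasmic polyadenylation element and control poly(A) tail length and translation. Elavl1 (HuR) binds AU-rich elements and stabilises messages, Qk (quaking) is a KH-domain protein of splicing and message stability, and Rbmxl2 (hnRNP G-T) is a testis splicing regulator that arose as a retrotransposed copy in the Rbmx family.

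The genes lie at chr11:69935805-69941604 (Ybx2), chr17:50279393-50293620 (Dazl), chr1:55243566-55363789 (Boll), chr7:81347026-81458001 (Cpeb1), chr5:43225349-43289724 (Cpeb2), chr8:4284781-4325140 (Elavl1), chr17:10206471-10319361 (Qk) and chr7:107209445-107210916 (Rbmxl2) in RefSeq's GRCm38.p6 annotation. Probe sets carry no position in the files, so the exon or transcript end that each one reads is not given here. By the array maker's naming, 1432530_s_at of Boll and 1428653_x_at of Elavl1 can also bind other transcripts. No detection call was available, and signals near the offset of 16 that was added before taking log2 are close to background. Signals of different probe sets are not compared with each other.

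Ddx25 checked the genotype labels: its signal was 598.3 to 1063 in KO and 14620 to 21150 in WT polysome RNA, and 2990 to 4596 in KO and 13000 to 18440 in WT over the 3 cell fractions. The IP arrays stood apart. Their actin 3' to 5' signal ratio was 3.81 to 12.8, against 1.57 to 2.09 on total polysome arrays, and replicate IP arrays differed by an SD of 1.25 (GRTH IP) and 1.3 (IgG IP) on the log2 scale, against 0.145 (KO) and 0.166 (WT) in the Leydig cell fraction. Arrays 1 and 2 of each germ cell group were closer to each other than to array 3, with an SD of 0.262 (KO) and 0.273 (WT) in round spermatids. Spermatocyte arrays 3 and 4 formed a second pair, with an SD of 0.198 (KO) and 0.207 (WT), against 0.287 to 0.322 across the pairs. Averaging the closest arrays therefore left 2 values in each germ cell group. For 4 arrays the title and the free-text description disagree about the group (KO polysome 1, WT polysome 1 and 2, IgG IP 1); groups here follow the titles.

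In round spermatids, the haploid cells that follow meiosis, 7 of the 8 genes had at least 1 probe set that was higher in KO, and no probe set passed the test in the other direction. Of 25 probe sets, 17 passed the filter on dim signals (Elavl1 1440464_at and Qk 1425597_a_at passed it in none of the comparisons). Of these, 13 were higher in KO, or 76.5%, where 43.9% of all 22519 probe sets tested were called, 28.9% higher and 14.9% lower (limma, Benjamini-Hochberg adjusted p under 0.05). The median log2 difference, KO minus WT, was 0.66 over the 17 member probe sets and 0.13 over all probe sets tested. The changes ran from 1.24-fold for Rbmxl2 to 2.74-fold for Elavl1 1431037_a_at. A fit over all 28 arrays, whose pooled spread includes the IP arrays, called 4 of the 17, and 11 were called when the closest arrays were averaged.

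**Figure D1:**
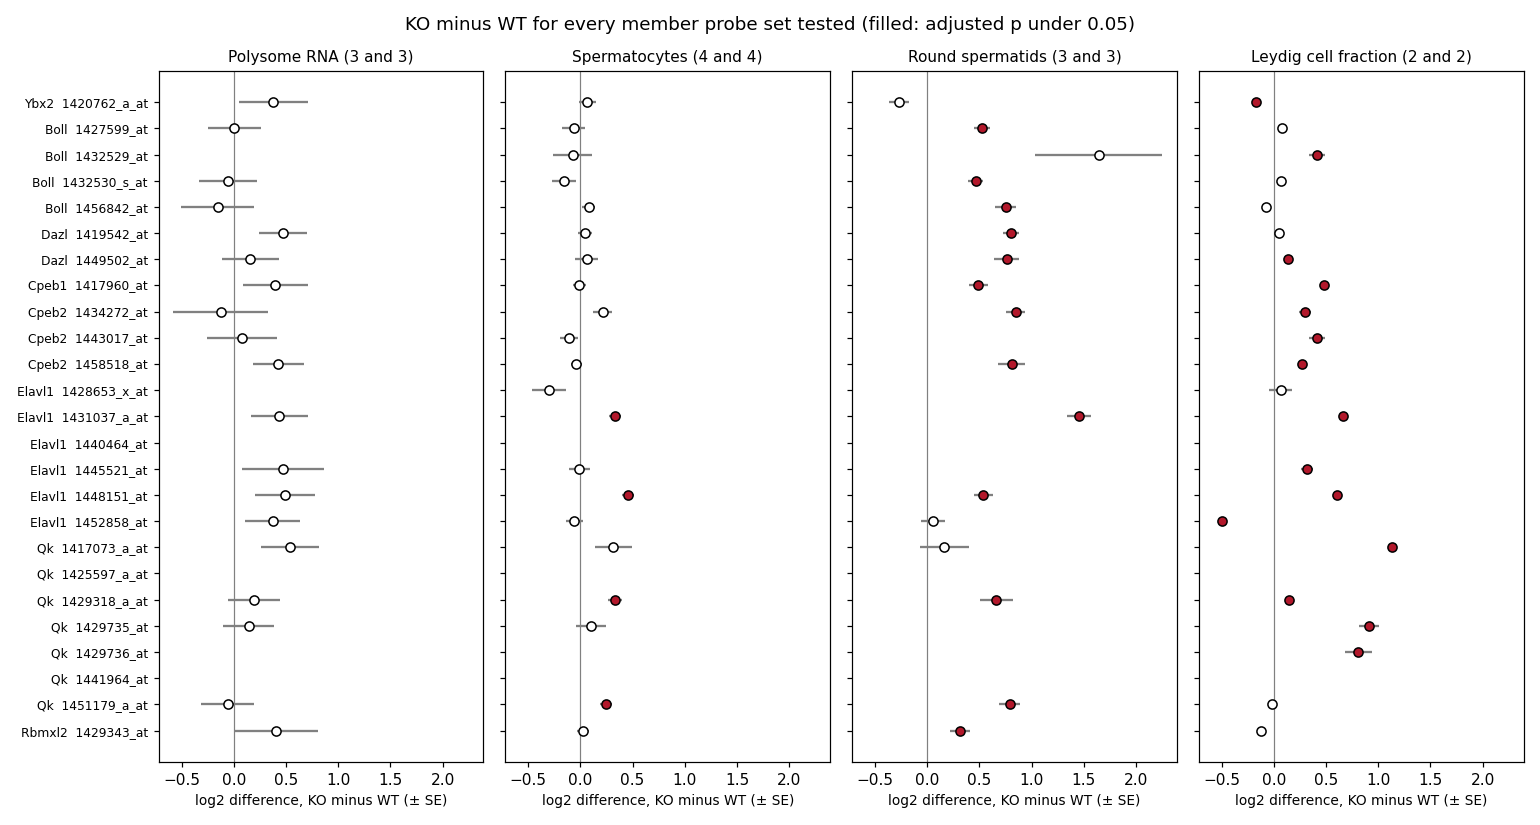
Log2 difference, KO minus WT, of every member probe set tested in each of 4 RNA sources (dots, with the SE as a bar; filled dots have an adjusted p under 0.05; rows with no dot were too dim to be tested). In round spermatids 13 of 17 dots are filled and lie right of 0, while in polysome RNA none is filled.

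RNA of other stages moved in the same arrays. The summed signal of 8 spermatocyte marker genes was 26660 to 27210 in KO and 19200 to 20440 in WT round spermatids, and 5 of the 9 probe sets of this list were higher in KO. Sycp3, a synaptonemal complex protein, averaged 5061 in KO and 2627 in WT round spermatids, while Spo11, the meiotic break-making enzyme, averaged 2067 in KO and 2292 in WT. Sums for 8 round spermatid markers were 80510 to 87130 in KO and 105900 to 123200 in WT, and for 10 elongating spermatid markers 188500 to 238500 in KO and 287100 to 395600 in WT, with 15 of 19 probe sets lower. The sum over 6 spermatogonial markers was 2413 to 2708 in KO and 1794 to 2107 in WT. Markers of somatic cells shifted as well: Leydig markers summed to 1403 to 1642 in KO and 1037 to 1056 in WT, and Sertoli markers to 1394 to 1448 in KO and 2505 to 2693 in WT. Macrophage markers summed to 9122 to 10110 in KO and 16160 to 21300 in WT. Of the 8 macrophage probe sets, however, 1 was lower in KO and 0 higher, with a median log2 difference of 0.05, so this sum does not stand for the whole list. No defining marker of the 4 germ cell lists was under a signal of 16. The part of these shifts in the members' differences was not tested. In bulk RNA of this kind, fewer cells of a type and less RNA per cell cannot be told apart.

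Ybx2 did not share in the rise. Its single probe set, 1420762_a_at, had 22470, 20460 and 19450 in the 3 KO round spermatid arrays, against 27130, 24280 and 23900 in WT. The groups did not overlap, yet the log2 difference of -0.27 ± 0.09 (SE) missed the threshold (adjusted p = 0.0575), and quantile normalization put it at 0.07, on the other side of 0, while an offset of 64 took it past the threshold (adjusted p = 0.043). In spermatocytes KO had 15660 to 19820 with a median of 17460 and WT 15770 to 17900 with a median of 16710, a difference of 0.07 ± 0.08. Signal was lowest in the IP arrays, with 2730 and 6048 in GRTH IP and 6530 and 11170 in IgG IP.

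Dazl rose on each of its probe sets in KO round spermatids. Probe set 1419542_at had 2647, 2743 and 2769 in KO, against 1488, 1531 and 1640 in WT, a log2 difference of 0.80 ± 0.08 (adjusted p = 0.000686). Probe set 1449502_at had 3033, 3129 and 3238 in KO and 1683, 1702 and 2177 in WT, a difference of 0.76 ± 0.12 (adjusted p = 0.00342). Every KO array was above every WT array on both. In spermatocytes the differences were 0.05 ± 0.07 and 0.06 ± 0.11, with overlapping groups.

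Boll, the DAZ family member needed for sperm formation, was higher in KO round spermatids on 3 of 4 probe sets. Probe set 1456842_at had 1535, 1635 and 1903 in KO and 971.2, 1035 and 975.8 in WT, a log2 difference of 0.75 ± 0.10 (adjusted p = 0.00206). The differences were 0.53 ± 0.08 for 1427599_at and 0.46 ± 0.07 for 1432530_s_at, and no KO array of these 3 overlapped WT. Probe set 1432529_at was scattered, with 826.2, 163.3 and 459.3 in KO and 173.8, 145.7 and 60.77 in WT. Its difference of 1.64 ± 0.61 did not pass (adjusted p = 0.0684).

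The sequence just before the start of transcription is shown for the DAZ pair, which rose together, and for Ybx2, which did not. Each run is the 250 bases upstream of a start in RefSeq's GRCm38.p6 table, which held 9 starts for 7 of the 8 genes, and is written 5′ to 3′ on the gene's strand. Capitals mark matches on either strand to the E-box, CCAAT box, GC box, NRF1 core or TATA box, whose letters are spelled out after the runs and none of which contains another. The Dazl run lies at chr17:50293621-50293870, minus strand. The run of the second Boll start lies at chr1:55362729-55362978, minus strand, and the first of 2 starts of Ybx2 at chr11:69935649-69935898, plus strand.
Dazl: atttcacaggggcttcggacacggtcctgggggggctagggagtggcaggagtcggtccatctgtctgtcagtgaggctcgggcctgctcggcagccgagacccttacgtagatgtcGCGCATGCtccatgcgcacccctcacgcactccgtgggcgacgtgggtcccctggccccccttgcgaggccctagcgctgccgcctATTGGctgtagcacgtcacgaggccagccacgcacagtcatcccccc
Boll: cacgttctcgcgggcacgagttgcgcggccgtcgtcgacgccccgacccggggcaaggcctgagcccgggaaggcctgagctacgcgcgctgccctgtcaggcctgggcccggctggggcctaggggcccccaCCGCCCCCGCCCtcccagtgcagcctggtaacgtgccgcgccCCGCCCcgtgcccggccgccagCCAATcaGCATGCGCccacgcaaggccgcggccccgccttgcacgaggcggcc
Ybx2: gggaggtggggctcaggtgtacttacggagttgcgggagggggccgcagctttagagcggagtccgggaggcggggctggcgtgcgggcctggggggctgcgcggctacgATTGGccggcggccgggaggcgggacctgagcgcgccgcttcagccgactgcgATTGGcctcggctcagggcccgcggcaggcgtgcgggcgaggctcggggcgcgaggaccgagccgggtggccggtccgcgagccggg
The NRF1 core, searched as GCATGCGC, stood in the Dazl run and in this Boll run. These were 2 of the 9 member starts, and 2.26% of all 32851 starts in the table held it. The first Boll start lacked it, as did the starts of Cpeb1, Elavl1, Qk and Rbmxl2, genes that also had probe sets higher in KO. The Ybx2 run shown carried 2 matches to the CCAAT box, searched as CCAAT, and the second Ybx2 start none. This box was in 5 of the 9 and in 33.8% of all starts. The E-box, searched as CACGTG, was in 2 of the 9 (Rbmxl2 and the first start of Boll) and in 6.02% of all. GC boxes (GGGCGG) were in 6 of the 9 and in 32.7% of all. Cpeb1 alone had a TATA box (TATAAA), which 12.4% of all starts held. The cyclic AMP response element, searched as TGACGTCA, was in 0 of the 9 and in 1.55% of all. These matches are a description of letters and were not tested against the signals.

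Cpeb1, whose known targets in mouse oocytes include the synaptonemal complex messages, gave low signals. Its probe set 1417960_at had 146.4, 141.4 and 125.8 in KO round spermatids, against 89.06, 102.1 and 89.09 in WT. The groups did not overlap and the log2 difference was 0.49 ± 0.09 (adjusted p = 0.00715), a call lost when the closest arrays were averaged (adjusted p = 0.0608). Spermatocytes had 92.54 to 101.6 in KO and 89.56 to 109.2 in WT, a difference of -0.01 ± 0.06. The highest signals were in polysome RNA, with 540.9, 301.7 and 298.6 in KO and 374, 240.6 and 226.5 in WT.

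Cpeb2 had the largest differences between germ cell stages in WT, given below with the other stage values. In round spermatids 1434272_at had 337.5, 340.6 and 389.1 in KO, against 199.6, 192.3 and 178.7 in WT, and 1458518_at had 202, 254.7 and 262.6 in KO against 147, 118.2 and 123.3 in WT. The log2 differences were 0.85 ± 0.09 (adjusted p = 0.000964) and 0.81 ± 0.13 (adjusted p = 0.00384), with no overlap. The dimmer 1443017_at had 60.47 to 104.4 in KO and 34.47 to 39.86 in WT round spermatids and was below the filter there. In spermatocytes 1434272_at had 1988 to 2430 with a median of 2181 in KO and 1745 to 2053 with a median of 1878 in WT. This difference of 0.21 ± 0.09 did not pass (adjusted p = 0.117), but did with the replicate number as a block (adjusted p = 0.0148), and the other 2 probe sets lay at -0.11 ± 0.09 and -0.04 ± 0.05.

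Elavl1 held the largest difference among the 13 higher probe sets. Probe set 1431037_a_at had 667.6, 600.1 and 603.6 in KO round spermatids, against 240.7, 186.3 and 229.4 in WT, a log2 difference of 1.45 ± 0.11 (adjusted p = 0.000402). Probe set 1448151_at had 291, 334.3 and 320.1 in KO and 227.6, 204 and 204.1 in WT, a difference of 0.54 ± 0.09 (adjusted p = 0.00438). Another Elavl1 probe set did not share this: 1452858_at had 92.32, 93.48 and 112.6 in KO and 101.5, 82.53 and 101.4 in WT, with a difference of 0.06 (95% interval -0.22 to 0.33). Across the 28 arrays the log2 values of 1431037_a_at and 1452858_at had a Pearson correlation of 0.863, given as a description over arrays of 10 groups. In spermatocytes 1431037_a_at had 1451 to 1667 in KO and 1176 to 1294 in WT, and 1448151_at 938.3 to 1056 in KO and 674.3 to 735.6 in WT. Neither pair of groups overlapped, and the differences were 0.33 ± 0.06 (adjusted p = 0.00474) and 0.46 ± 0.06 (adjusted p = 0.000774), against -0.06 ± 0.08 for 1452858_at.

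Qk was higher in KO on the same 2 probe sets in both germ cell stages. Probe set 1451179_a_at had 5627, 5318 and 6211 in KO round spermatids, against 3154, 3149 and 3596 in WT, a log2 difference of 0.79 ± 0.10 (adjusted p = 0.0016). Probe set 1429318_a_at had 2251, 2174 and 2884 in KO and 1556, 1759 and 1289 in WT, a difference of 0.66 ± 0.16 (adjusted p = 0.0164), which did not pass when the closest arrays were averaged (adjusted p = 0.0529). In spermatocytes the differences were 0.24 ± 0.06 (adjusted p = 0.0173) and 0.33 ± 0.07 (adjusted p = 0.00794). Probe set 1417073_a_at, at 72.17 to 80.86 in KO and 40.04 to 90.46 in WT round spermatids, gave 0.16 ± 0.24.

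Rbmxl2 had 2817, 2702 and 3089 in KO round spermatids, against 2148, 2261 and 2515 in WT. The groups did not overlap, but the log2 difference of 0.31 ± 0.10 was near the threshold (adjusted p = 0.0395). The call was lost when any of the 6 arrays but WT round spermatid 3 was left out (adjusted p = 0.0685 to 0.118). It was also lost with no filter (0.13), quantile normalization (0.0593), median centring (0.0833), the closest arrays averaged (0.171) and all 28 arrays in the fit (0.751). In spermatocytes it had 1822 to 2068 in KO and 1811 to 1962 in WT, a difference of 0.03 ± 0.06.

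**Figure D2:**
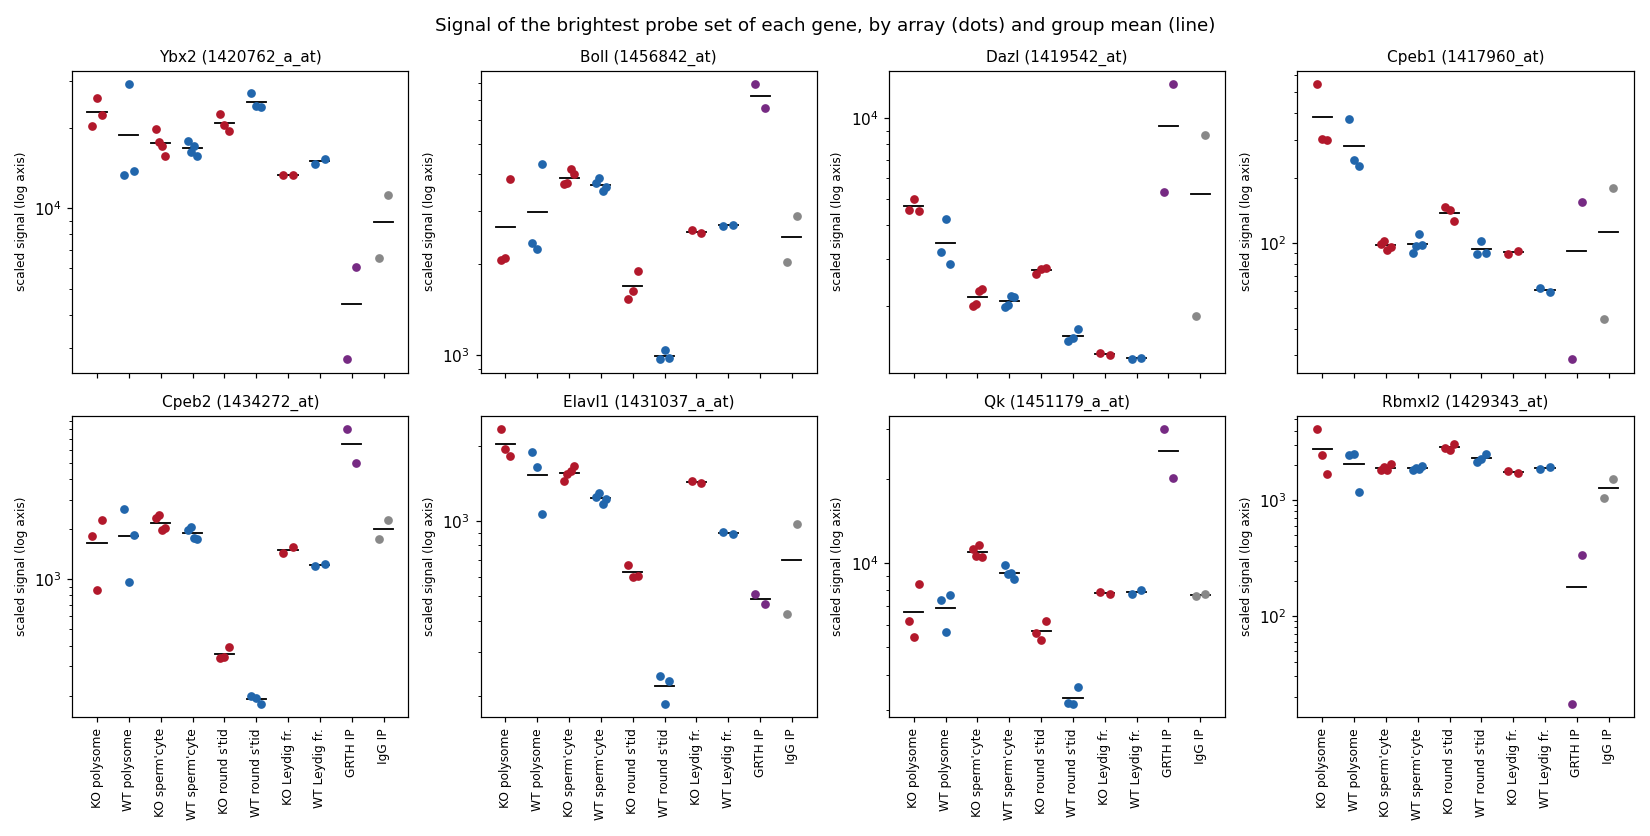
Scaled signal (log axis) of the brightest probe set of each gene on every array (dots), by group, with the group mean as a line. Cpeb2, Elavl1, Qk and Boll are lower in round spermatids than in spermatocytes, and KO round spermatids lie between KO spermatocytes and WT round spermatids for these 4.

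Ordered by mean log2 value over the 10 groups, the brightest probe set of each gene gave different leaders. Ybx2 was highest in WT round spermatids (25110 ± 1760, SD, n = 3), followed by KO polysome RNA (22880) and KO round spermatids (20790), and these neighbours overlapped. Dazl 1419542_at was highest in GRTH IP (9335, range 5310 to 13360), then in KO polysome RNA (4700 ± 253, n = 3). IgG IP came next by mean log2 value, although its mean signal was higher (5238, range 1837 to 8638), and it overlapped GRTH IP. The KO and WT Leydig cell fractions were lowest (1327 and 1281), a pair that did not overlap. On Dazl 1449502_at, GRTH IP was at position 9 of 10. Cpeb1 and Elavl1 1431037_a_at were highest in KO polysome RNA, at 380.4 and 2030, and Rbmxl2 in KO round spermatids (2869 ± 199, n = 3), which overlapped KO polysome RNA (2755). Boll 1456842_at, Cpeb2 1434272_at and Qk 1451179_a_at were highest in GRTH IP, at 7239, 6522 and 25030, none overlapping the next group. The next group for these 3 was KO spermatocytes, at 3879, 2195 and 10950. On the other probe sets of Boll, GRTH IP was at position 9 or 10, and on those of Cpeb2 at position 7 or 8. The IP arrays had an additional labelling step and higher actin 3' to 5' ratios, so they are not directly comparable with the other groups. WT round spermatids were the lowest group for Boll 1456842_at (994), Cpeb2 1434272_at (190.2), Elavl1 1431037_a_at (218.8) and Qk 1451179_a_at (3299), and none of these overlapped its neighbour.

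In spermatocytes as a whole, 4 of the 21 member probe sets tested were higher in KO and 0 lower, or 19%, where 24.3% of all probe sets tested were called, 12.8% higher and 11.4% lower. The 4 were the Elavl1 and Qk probe sets given above, and the median log2 difference was 0.05 over the members and 0.04 over all probe sets tested. None of the 4 was called when the closest arrays were averaged or when all 28 arrays were fitted together, and 2 were called when arrays were centred on their medians. Beside them, 7 of 11 Leydig cell marker probe sets were higher in KO spermatocytes, with a summed signal of 9082 to 9995 in KO and 6727 to 7296 in WT, and 17 of 19 elongating spermatid marker probe sets were lower. The part of these shifts was not tested.

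For part of the member probe sets, the KO effect passed the test of a difference between the stages. Subtracting the KO effect in spermatocytes from that in round spermatids gave 11 positive calls among 20 member probe sets, or 55%, in 6 genes, where 31.4% of all probe sets tested were called, 22% positive and 9.43% negative. Elavl1 1431037_a_at had the lowest adjusted p of the members, with a difference of effects of 1.12 ± 0.12 (adjusted p = 4.79e-05). Dazl passed at 0.76 ± 0.10 (1419542_at, adjusted p = 0.000143) and 0.70 ± 0.17 (1449502_at, adjusted p = 0.00723). Cpeb2 1434272_at passed at 0.64 and 1458518_at at 0.85, and 3 Boll probe sets at 0.59, 0.62 and 0.67. Cpeb2 1443017_at also passed, at 0.96, but was below the filter within round spermatids and entered through its spermatocyte signal. Without the 3 probe sets of that kind, 10 of 17 were called. Cpeb1 passed at 0.50 ± 0.11 and Qk 1451179_a_at at 0.55 ± 0.11. Elavl1 1448151_at, at 0.08 ± 0.10, did not pass (adjusted p = 0.552). Ybx2 (-0.34 ± 0.12, adjusted p = 0.0518) and Rbmxl2 (0.29 ± 0.10, adjusted p = 0.0504) did not pass either. The median was 0.57 over the 20 members, which include the 3 probe sets below the filter within round spermatids, and 0.11 over all. Of the 11 calls, 2 were left when the closest arrays were averaged and 0 in the fit over all 28 arrays.

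Between round spermatids and spermatocytes the genes went both ways. In KO, 13 of 20 probe sets, in 4 genes, were lower in round spermatids and 6, in 5 genes, were higher (Boll had both), where 75.6% of all probe sets tested were called, 41.2% lower and 34.4% higher. In WT, 14 of 20, in 5 genes, were lower and 2, in 2 genes, were higher, where 78.3% of all were called, 44.9% lower and 33.4% higher. The median log2 difference over the members was -0.89 in KO and -1.33 in WT, where that over all probe sets was -0.07 in KO and -0.16 in WT. The member medians include 3 probe sets, named below, that were below the filter within round spermatids and entered through their spermatocyte signal. Cpeb2 1434272_at had 337.5 to 389.1 in KO round spermatids against 1988 to 2430 in KO spermatocytes, a log2 difference of -2.57 ± 0.10, and 178.7 to 199.6 in WT round spermatids against 1745 to 2053 in WT spermatocytes, a difference of -3.21 ± 0.08. Probe set 1458518_at gave -2.38 in KO and -3.23 in WT. Elavl1 1452858_at had 92.32 to 112.6 in KO round spermatids against 743.3 to 956.7 in KO spermatocytes, and 82.53 to 101.5 in WT round spermatids against 865.6 to 924.4 in WT spermatocytes. These differences of -2.92 ± 0.11 in KO and -3.03 ± 0.08 in WT were the largest for Elavl1. Elavl1 1431037_a_at and 1448151_at were lower as well, at -1.30 and -1.60 in KO and -2.42 and -1.68 in WT. The remaining lower calls of these genes, Cpeb2 1443017_at and Elavl1 1428653_x_at and 1445521_at, were for 3 probe sets below the filter within round spermatids and get no size here. Elavl1 1428653_x_at was at 19.23 to 23.46 in KO and 13.8 to 28.04 in WT round spermatids, around the offset. Without these 3, 10 of 17 probe sets were lower in KO and 11 of 17 in WT.

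Dazl and Cpeb1 had different stage patterns in the 2 genotypes. Dazl 1419542_at was higher in KO round spermatids than in KO spermatocytes (0.33 ± 0.07, adjusted p = 0.00422) and lower in WT round spermatids than in WT spermatocytes (-0.43 ± 0.07, adjusted p = 0.000748). Dazl 1449502_at was also higher in KO (0.37 ± 0.08, adjusted p = 0.00315), but its difference of -0.33 in WT did not pass (adjusted p = 0.0625). Cpeb1 was higher in KO round spermatids (0.44 ± 0.07, adjusted p = 0.000649), against -0.06 ± 0.08 in WT. The tests of these differences between genotypes are the differences of KO effects given above. Ybx2, at 0.24 ± 0.09 in KO (adjusted p = 0.0479) and 0.58 ± 0.08 in WT (adjusted p = 0.000239), was higher in round spermatids, although quantile normalization turned its sign (-0.04 in KO and -0.06 in WT). Rbmxl2 was higher in round spermatids by 0.58 ± 0.08 in KO (adjusted p = 0.000225) and 0.29 ± 0.08 in WT (adjusted p = 0.00841). In KO, with the replicate number as a block, the calls of Boll 1427599_at (adjusted p = 0.0635), Boll 1432529_at (0.0662) and Qk 1417073_a_at (0.0597) were lost.

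**Figure D3:**
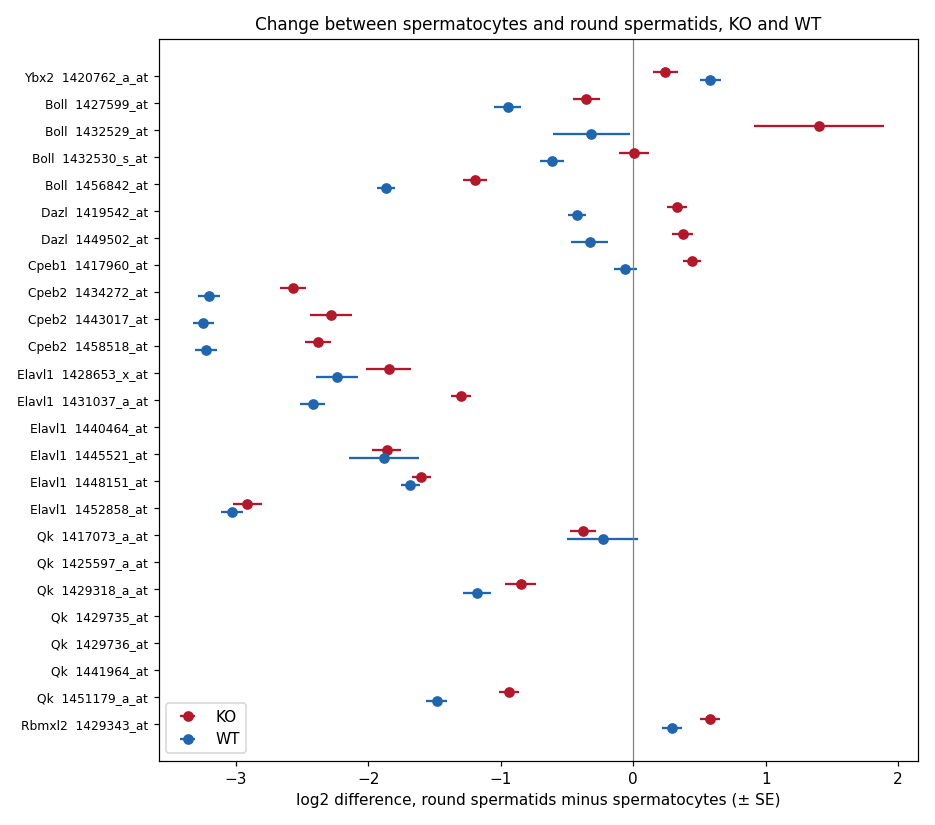
Log2 difference, round spermatids minus spermatocytes, of every member probe set tested, in KO (red) and WT (blue), with the SE as a bar. The Cpeb2 probe sets other than 1443017_at lie between -2.38 and -3.23. Cpeb2 1443017_at was below the filter within round spermatids, so its dots are not read as a size. Dazl and Cpeb1 lie right of 0 in KO and left of 0 in WT, where only Dazl 1419542_at of these passed the test.

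In total polysome RNA, the ribosome-bound messages of the whole testis, no member passed the test. Of 25 probe sets 19 were tested, 0 were called and 0 had an unadjusted limma p under 0.05, where 2.4% of all probe sets tested were called, 0.169% higher and 2.23% lower. Over all probe sets, 38 were higher and 502 lower. These counts became 756 and 952 with the replicate number, which pairs these arrays, as a block, 1398 and 1131 with array weights, and 6 and 28 without the arrays of conflicting description. On the deposited scale 0 were called, and the members had 0 calls under each of these 4 settings. The median difference was 0.37 over the 19 members and 0.16 over all probe sets tested. Dazl 1419542_at came closest, with 4580, 4991 and 4530 in KO, against 3189, 4237 and 2864 in WT. These groups did not overlap, and the difference was 0.47 (95% interval -0.06 to 1.00, adjusted p = 0.406). Qk 1417073_a_at had 726.6, 717.5 and 1187 in KO and 617.3, 464.5 and 685.3 in WT, a difference of 0.54 (95% interval -0.10 to 1.18, adjusted p = 0.429). Ybx2 had 20320, 25880 and 22450 in KO and 13320, 29110 and 13850 in WT, with overlap and a difference of 0.38 ± 0.33. Elongating spermatid markers summed to 27600 to 53210 in KO and 194600 to 398700 in WT polysome RNA, and Leydig markers to 43210 to 70480 in KO and 23410 to 43690 in WT. Their part in these differences was not tested.

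Set against round spermatids, the KO effect in polysome RNA passed the test of a difference for none of the 20 members tested (limma). Of all probe sets 0.542% were called, 0.377% negative and 0.164% positive. At an unadjusted limma p under 0.05 there were 3 of the 20. For Elavl1 1431037_a_at the KO effect in polysome RNA minus that in round spermatids was -1.02 ± 0.30 (adjusted p = 0.15). Qk 1451179_a_at followed at -0.85 ± 0.27 (adjusted p = 0.177) and Boll 1456842_at at -0.90 ± 0.39 (adjusted p = 0.326). For these 3 the difference of KO effects passed, as negative, when the replicate number was a block (adjusted p = 0.0485, 0.0476 and 0.0418, in the same order). In polysome RNA alone none of them was called, with or without the block.

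In the Leydig cell fraction, from the testosterone-making cells between the tubules, 13 of the 22 member probe sets tested were higher in KO and 2 lower, or 59.1% higher, where 64.2% of all probe sets tested were called, 38.9% higher and 25.3% lower. The median log2 difference was 0.21 over the members and 0.07 over all. Qk 1417073_a_at had the largest difference, with 442.7 and 437.9 in KO, against 191.3 and 192.5 in WT, or 1.13 ± 0.03 (adjusted p = 0.000445). A pair of dimmer Qk probe sets were higher too, 1429735_at by 0.91 ± 0.10 and 1429736_at by 0.81 ± 0.13. The bright Qk probe set 1451179_a_at, higher in KO round spermatids, had 7879 and 7731 in KO and 7758 and 8008 in WT here, with overlap and a difference of -0.01 ± 0.03. Quantile normalization put that value at 0.15 (adjusted p = 0.026). Probe sets of Qk differed in how alike they were over the 28 arrays: 1417073_a_at and 1429735_at had a Pearson correlation of 0.819, and 1429735_at and 1451179_a_at one of 0.151.

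Elavl1 probe sets went in opposite directions in this fraction. Probe set 1431037_a_at had 1445 and 1417 in KO and 904.7 and 886 in WT, a difference of 0.67 ± 0.03 (adjusted p = 0.000807), and 1448151_at differed by 0.60 ± 0.03. Probe set 1452858_at had 405.2 and 399.8 in KO and 584.5 and 567.3 in WT, a difference of -0.50 ± 0.03 (adjusted p = 0.00144). KO and WT did not overlap on any of the 3, which says little with 2 arrays a group. Ybx2 was lower, with 13310 and 13320 in KO and 14700 and 15290 in WT (-0.17 ± 0.03, adjusted p = 0.0192), while the 3 Cpeb2 probe sets were higher by 0.27 to 0.41 and Cpeb1 by 0.48 ± 0.04. Boll 1427599_at (0.08) and 1432530_s_at (0.07) and Dazl 1419542_at (0.05), none of which passed, turned to -0.10, -0.10 and -0.12 and passed when arrays were centred on their medians. Dazl 1449502_at (0.13) and Qk 1429318_a_at (0.15), which passed, turned to -0.04 and -0.02 under the same setting, which left 6 members higher and 8 lower.

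Each of these Leydig fraction results rests on 2 arrays a group that lay closer together than arrays of any other group, and the fit over all 28 arrays called 0 members. The fraction also held germ cell RNA. Leydig marker genes summed to 62430 to 63340 in KO and 33340 to 33410 in WT, with 12 of 12 probe sets higher in KO, while elongating spermatid markers summed to 114000 to 116300 in KO and 163400 to 165500 in WT, and spermatocyte markers to 28830 to 29130 in KO and 29860 to 30220 in WT. No Leydig marker was under a signal of 16. Sertoli markers summed to 12370 to 12810 in KO and 8080 to 8297 in WT, with 7 of 11 probe sets higher in KO and 2 lower. Of 8 macrophage probe sets 7 were higher in KO and 1 lower, while the macrophage sum was 9845 to 9916 in KO and 10100 to 10130 in WT. The part of these cell sources in the members' signals was not tested. Compared with WT round spermatids, the WT Leydig cell fraction had 13 of 20 member probe sets higher and 4 lower, where 69.6% of all probe sets tested were called, 37.1% higher and 32.5% lower. The 20 include Cpeb2 1443017_at, Qk 1429735_at and Elavl1 1445521_at, which were below the filter within round spermatids and entered through their Leydig fraction signal. Cpeb2 1443017_at and Qk 1429735_at are among the higher calls, which therefore cannot be taken as evidence for these probe sets. Cpeb2 1434272_at had 1199 and 1239 in the WT Leydig cell fraction against 178.7 to 199.6 in WT round spermatids, a difference of 2.58 ± 0.08 (adjusted p = 9.01e-05). Ybx2 (-0.74 ± 0.09) and Cpeb1 (-0.52 ± 0.09) were lower in the Leydig cell fraction.

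In the GRTH IP, no member passed the test against IgG IP: 0 of 21 were called, with an adjusted p of 0.999 for each, and 0% of all probe sets tested were called in either direction. At an unadjusted limma p under 0.05, 3 members and 513 probe sets overall (2.28%) stood out, and the median log2 difference was 0.53 over the members and 0.11 over all. Rbmxl2 had 17.43 and 337 in GRTH IP, against 1036 and 1522 in IgG IP, a log2 difference of -3.55 ± 1.09. Qk 1451179_a_at had 29970 and 20080 in GRTH IP and 7620 and 7725 in IgG IP (1.68 ± 0.68), and Cpeb2 1434272_at 7995 and 5048 in GRTH IP and 1741 and 2273 in IgG IP (1.67 ± 0.69). These 3 had no overlap between groups, but neither did some other members. With 2 arrays a group, a lack of overlap says little. Boll 1456842_at, with 7896 and 6582 in GRTH IP and 2038 and 2887 in IgG IP, gave 1.56 ± 0.68. Qk 1441964_at, which passed the filter in this comparison only, had 225.1 to 282.9 in GRTH IP and 69.52 to 97.39 in IgG IP (1.45 ± 0.68). Other probe sets of Boll (0.08 and 0.04) and Cpeb2 (0.98 and 0.42) had replicate arrays that overlapped between groups. The fit over all 28 arrays, whose spread is pooled over the 10 groups, called 7 members here, 5 higher and 2 lower in GRTH IP, among them Qk 1451179_a_at, Cpeb2 1434272_at and Boll 1456842_at (higher) and Rbmxl2 (lower). Without IgG IP 1, whose description names the other antibody, 0 members and 2 of all probe sets were called; that fit has 1 IgG array, assumed to vary like the GRTH IP arrays.

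**Figure D4:**
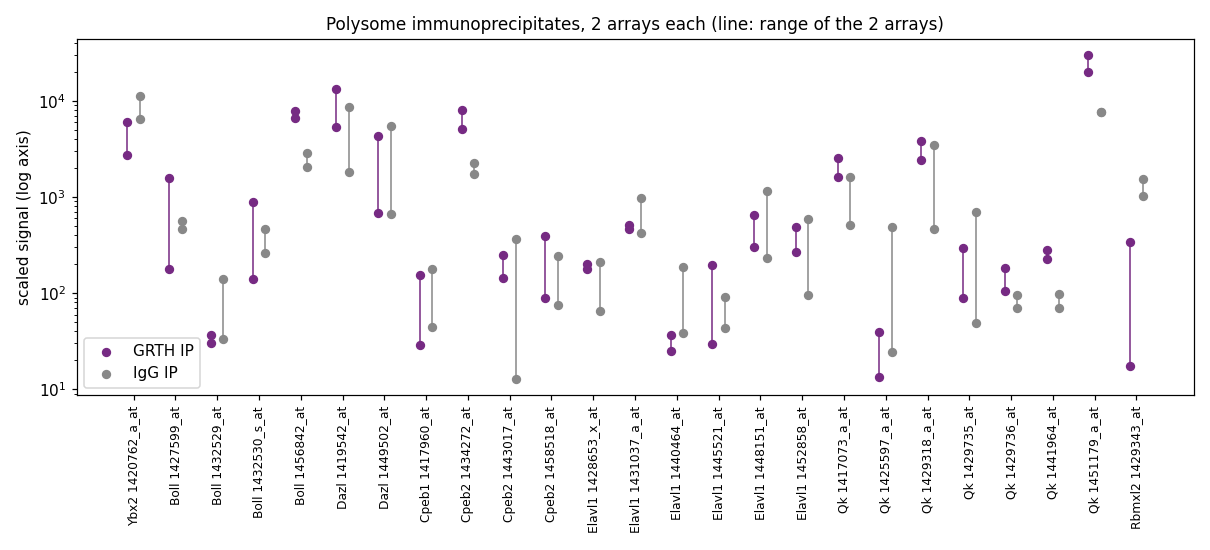
Scaled signal (log axis) of each member probe set in GRTH IP and IgG IP, with 2 arrays each and a line over their range. Rbmxl2 lies lower, and Qk 1451179_a_at, Cpeb2 1434272_at and Boll 1456842_at higher, in GRTH IP than in IgG IP, while most other ranges overlap.

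Other regulators of the same kind were counted from a list of 56 genes, 51 of them on the array with 152 probe sets. In round spermatids 47 of 110 tested were higher in KO and 8 lower, beside the 28.9% and 14.9% of all probe sets. Each gene named next is given by its probe set of smallest adjusted p, and other probe sets of the same gene often differed. The splicing repressor Ptbp2 was higher at 0.74 ± 0.07, with its other probe set at 0.68. Its relative Ptbp1 was higher at 1.01 ± 0.11 on 1 probe set, while the others lay at 0.15 and -0.29. The STAR protein Khdrbs1 was higher at 0.74 ± 0.08, with the rest at 0.24 to 0.71. Elavl4, with 1 probe set tested, was lower at -1.39 ± 0.11, and the message-binding protein Igf2bp3 at -0.77 ± 0.08, with the rest at -0.41 to -0.01. Cpeb3 was lower at -1.43 ± 0.09 on 1 probe set and lay at -0.19 on the other. In spermatocytes 11 of 110 were higher and 4 lower, beside 12.8% higher and 11.4% lower of all probe sets. Higher were Caprin1 (0.77, others -0.32 to 0.25), Lin28a (0.95, 1 probe set tested) and Strbp (0.50, others -0.06 to 0.16). Lower were Paip1 (-1.38, others -0.81 and 0.01), Cpeb3 (-0.79, the other 0.31) and Cpeb4 (-0.22, others -0.14 and 0.16). In polysome RNA 1 of 114 passed, a Cpeb3 probe set at -1.48 ± 0.29 (adjusted p = 0.0382), while the other Cpeb3 probe sets lay at -0.39, 0.02 and -0.23. The Leydig cell fraction had 42 of 111 higher and 28 lower, beside 38.9% higher and 25.3% lower of all probe sets, and the GRTH IP had 0 of 109 called.

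Messages known to be stored or bound by such proteins, 15 genes with 23 probe sets, mostly moved the other way. In round spermatids 13 of 23 were lower in KO and 3 higher, beside 14.9% lower and 28.9% higher of all probe sets. The lower ones included Prm3 (-1.24 ± 0.10), the sperm tail gene Odf1 (-1.83 ± 0.20, its other probe sets -0.60 and -1.08) and the sperm glycolysis enzyme Gapdhs (-0.95 ± 0.12). The 3 higher ones were Sycp1 (0.80 ± 0.09), Sycp3 (0.95 ± 0.13) and Tex19.1 (0.40 ± 0.08), of which the first pair are also on the spermatocyte marker list. In spermatocytes 16 were lower and 1 higher, beside 11.4% lower and 12.8% higher of all. In the Leydig cell fraction 18 were lower and 2 higher, beside 25.3% lower and 38.9% higher of all. In polysome RNA 14 of 23 were lower in KO and 0 higher, beside 2.23% lower and 0.169% higher of all, with Prm3 at -3.50 ± 0.30, Odf1 at -4.01 ± 0.36 (others -2.92 and -2.77) and Smcp, of the sperm mitochondrial capsule, at -3.22 ± 0.30. The list shares genes with the elongating spermatid markers given above.

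The genes whose log2 values over the 28 arrays were most like those of each member were found by Pearson correlation, as a description over arrays of 10 groups. Cpeb2 1434272_at was followed by Pcgf5 (0.984), Rnf138 and Prdm2 (0.974), and Elavl1 1431037_a_at by Usp10 (0.968), Cs (0.961) and Grb10 (0.957). Qk 1451179_a_at was most like Uba6 (0.953) and Carf (0.948), and then Boll 1456842_at (0.946), the only case in which another member was among the 3 nearest. Boll itself was closest to Ptpn20 (0.957) and Ybx2 to Aamp (0.953). Cpeb1 was closest to Sox4 and Smad4 (0.948 each), and Rbmxl2 to Lrrc41 (0.933). Dazl had the weakest best match, Becn1, at 0.896. Probe sets of 1 gene were not always this alike: for Boll 1427599_at and 1432530_s_at the correlation was 0.95, and for Boll 1432530_s_at and 1456842_at it was -0.20.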

How the data were processed

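The authors deposited 1 linear intensity per probe set for each of 28 mouse expression arrays, made with the GCOS software per the submitters' processing notes (version and settings: not given in the sources used here). RNA (1 µg per array) was labelled in 1 step, or with an additional step for the IP arrays, per the labels' protocols. Of the 28 deposited columns, 24 shared a 2%-trimmed mean of 500 and 4 polysome columns did not, so every array was rescaled to a trimmed mean of 500 (0.02 cut at each end). Values were analysed as log2(signal + 16), which understates changes of dim probe sets.

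Of 45101 probe sets, 64 controls were left out, 34945 carry 1 gene symbol in GEO's platform annotation, 932 several and 9160 none. Of those with 1 symbol, 34741 were found in RefSeq's gene list. Each comparison was fitted over its own groups with limma 3.58.1 (lmFit, eBayes; R 4.3.3), testing the 22519 probe sets at or above the median mean signal, with Benjamini-Hochberg adjustment over all of them and a threshold of 0.05. Every adjusted p in the text is limma's, and no t-test on single genes was run. Log2 differences, given ± SE, are KO minus WT, GRTH IP minus IgG IP, round spermatids minus spermatocytes, or Leydig cell fraction minus round spermatids. The fits were tested on simulated data. Plots were made in matplotlib 3.10.9 under Python 3.11.15.

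Groups follow the array titles. Array number limits the precision; no counts or depth exist for arrays. The members and gene lists were chosen with earlier results of these data known. All member probe sets were analysed, but values are not given for each of them in every comparison. Of each other list, up to 3 genes per direction with the smallest adjusted p are named, and the genes most alike were the 3 with the highest Pearson correlation. Same-numbered arrays deviated together in polysome RNA (correlations 0.35, 0.567 and 0.594), in spermatocytes (0.147 to 0.19) and between KO round spermatids and KO spermatocytes (0.102 to 0.14). GRTH IP and IgG IP arrays of the same number did so too (0.387, from 2 arrays a group). In these comparisons the number was taken to pair the arrays, from the data and not from the labels. Alternatives were another offset (64), no filter, quantile or median scaling, the deposited scale, all arrays in 1 fit, array weights, the replicate block, averaging the closest arrays, and leaving out single arrays or those with conflicting descriptions.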

Additional observations from a re-analysis of the deposited data

Results flagged for a closer look

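In 3 of 50 groups of 4 spermatocyte arrays, 1 array lay far from the other 3 by Dixon's test at the 95% level, where chance gives about 1 in 20. The ratios of the gap to the group's range were 0.902 for Elavl1 1428653_x_at (KO spermatocytes replicate 1), 0.986 for Qk 1429735_at (KO spermatocytes replicate 3) and 0.835 for Qk 1429735_at (WT spermatocytes replicate 2). These are dim probe sets, and neither passed the KO against WT test in spermatocytes.

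For 11 probe sets the KO effect in round spermatids minus the KO effect in spermatocytes passed the interaction test (limma, adjusted p under 0.05), all with a positive log2 difference. The differences were 0.59 (1427599_at), 0.62 (1432530_s_at) and 0.67 (1456842_at) for Boll, 0.76 (1419542_at) and 0.70 (1449502_at) for Dazl, and 0.50 for Cpeb1. Cpeb2 gave 0.64 (1434272_at) and 0.85 (1458518_at), and 0.96 on 1443017_at, which was below the filter on dim signals within round spermatids. Elavl1 1431037_a_at gave 1.12 and Qk 1451179_a_at gave 0.55.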

How the results depend on the processing

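Of 2917 alternative values of single member probe sets, 2683 kept their side of the threshold, 172 no longer passed it and 54 newly passed it. The other 8 turned their sign where the reported or the alternative value passed. Turns of sign where neither value passed are counted among the 2683. For all 28 arrays in 1 fit, members called were 0 in spermatocytes (against 4), 4 in round spermatids (13), 0 in the Leydig cell fraction (15), 7 in GRTH IP (0), 11 for KO round spermatids against KO spermatocytes (19), 10 for the WT Leydig cell fraction against WT round spermatids (17), and 0 for the KO effect in round spermatids minus that in spermatocytes (11); the cause was not tested. Averaging the closest arrays left 0 in spermatocytes and 2 of the differences of KO effects, and leaves fewer samples. Median centring left 2 in spermatocytes, and no filter left 9 in the Leydig cell fraction. For the KO effect in polysome RNA minus that in round spermatids, with 0 calls reported, the replicate block gave 3 (negative), array weights 2 (negative), and leaving out arrays of conflicting description 1 (positive). Leaving out single arrays gave 0 to 0 calls in polysome RNA, 4 to 4 in spermatocytes, 12 to 13 in round spermatids, 0 to 0 in GRTH IP, 16 to 17 (WT) and 16 to 18 (KO) between round spermatids and spermatocytes, 11 to 13 for the differences of KO effects between these stages, and 0 to 1 for polysome RNA minus round spermatids. It gave 9 to 13 in the Leydig cell fraction (9 without either KO array) and 10 to 19 between the Leydig cell fraction and round spermatids (10 without WT Leydig array 1, 11 without WT Leydig array 2). In the Leydig cell fraction the sign turned for Qk 1451179_a_at under quantile normalization (0.148) and under median centring for Boll 1427599_at (-0.09542) and 1432530_s_at (-0.1044), Dazl 1419542_at (-0.1243) and 1449502_at (-0.04187) and Qk 1429318_a_at (-0.02468). It also turned for Ybx2 between round spermatids and spermatocytes under quantile normalization (-0.04104 in KO, -0.06008 in WT). The replicate block gave 5 calls in spermatocytes, 16 between KO round spermatids and KO spermatocytes, 0 in polysome RNA and 0 in GRTH IP, where the numbers pair the arrays. Elsewhere the arrays share only a number: the block gave 13 calls in round spermatids, 12 higher and 1 lower (Ybx2, adjusted p = 0.0356), with Qk 1429318_a_at lost (0.0579), 13 for the differences of KO effects (12 higher, 1 lower), 17 between WT round spermatids and WT spermatocytes and 13 in the Leydig cell fraction. Scaling moved all probe sets. In the Leydig cell fraction 8767 were higher and 5688 lower, but 6602 and 7820 after quantile normalization and 5950 and 9496 after median centring, with a median log2 difference of 0.07, -0.04 and -0.10. Round spermatids had 6518 higher and 3366 lower, but 4985 and 4100 after quantile normalization, the differences of KO effects 4951 and 2123, but 4137 and 2931, and spermatocytes 2886 and 2577, but 1324 and 2296 after median centring. Median centring moved the median log2 difference of all probe sets to -0.28 in GRTH IP (from 0.11) and -0.335 between WT round spermatids and WT spermatocytes (from -0.157), and the deposited scale moved it to -0.171 in polysome RNA (from 0.161). With no detection calls, probe sets near the offset could not be told from background.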
